A study of Mus musculus with 2 samples.

Results

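The genes described here serve the synthesis, transport and breakdown of haem, the iron-containing porphyrin of cytochromes, catalase and haemoglobin. They are the 10 rows of the expression table, of 23466 in all, whose symbol was Hmox1, Hmox2, Blvra, Blvrb, Alas1, Urod, Cpox, Fech, Slc48a1 or Flvcr1. The rule lists symbols and sets no threshold on a measured value. Each symbol stood on 1 row.

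Haem is built from glycine and succinyl-CoA in a chain of enzymes that begins in the mitochondrion, passes through the cytosol and ends in the mitochondrion, where ferrochelatase inserts iron. Haem oxygenases open the ring again and release iron, carbon monoxide and biliverdin, which biliverdin reductases turn into bilirubin. Because breakdown frees iron while its products can act as antioxidants, haem oxygenase 1 has been described both as a promoter and as a brake of ferroptosis, an iron-dependent death by lipid peroxidation. In macrophages and microglia, haem taken up from dying cells can be a source of iron.

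The data were bulk poly(A) RNA-seq of mouse cells that the labels call primary microglia, macrophages that live in brain and spinal cord. There were 2 libraries. In the first, cells received iron at 1600 μM plus RSL3 at 1 μM, an inactivator of the lipid hydroperoxide reductase GPX4, in order to induce ferroptosis. The second was a control that received DMSO. No genotype, age, sex, treatment time or number of pooled animals is given in the sources used here. Iron and RSL3 were combined in that library, so the effect of each cannot be told apart from that of the other, and with 1 library per condition no difference has a replicate check or a test. Values are FPKM, fragments divided by the length of the transcript and by the depth of the library, and differences are log2(FPKM + 1) of the library given iron plus RSL3 minus the DMSO library. That scale understates differences of weakly expressed genes. A gene was measured at 1 FPKM or more in either library, and was called higher or lower at 2-fold on this scale, a rule of size only. In bulk RNA, fewer cells of a type and less RNA per cell cannot be told apart.

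The libraries differed as a whole. Over 11771 measured genes the median difference was -0.38, and 74.3% of them lay below 0. Each of the 10 haem genes is therefore also given relative to this median. The defining markers of the labelled cell type were nearly absent. Of 17 microglial and myeloid genes, 8 were measured, their FPKM summed to 105.5 in the library given iron plus RSL3 and to 122 in the DMSO library, and Aif1, Cx3cr1, Fcrls and Sall1 were at 0 in both. P2ry12, Csf1r and Ptprc were at 0.036, 0.39 and 0.11 FPKM under iron plus RSL3 and at 0.051, 0.47 and 0.065 FPKM under DMSO. The collagen genes Col1a1 and Col1a2 and the smooth muscle actin gene Acta2 were at 753.7, 928.2 and 805.3 FPKM under iron plus RSL3 and at 1002, 1109 and 1273 FPKM under DMSO. All 10 fibroblast and mural genes reached 10 FPKM in both libraries, with sums of 6341 FPKM under iron plus RSL3 and 7093 FPKM under DMSO. Their part in the haem genes was not tested. Of 12 erythroid genes with a row, none reached 1 FPKM and 5 were at 0 in both libraries. Their FPKM summed to 1.04 under iron plus RSL3 and 0.785 under DMSO. The adult beta-globin genes Hbb-bs and Hbb-bt were at 0 in both libraries, Hba-a1 was at 0.127 FPKM under iron plus RSL3 and 0.123 FPKM under DMSO, and Hba-a2 was at 0 FPKM under iron plus RSL3 and 0.048 FPKM under DMSO.

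All 10 haem genes were measured, at 1 FPKM or more in both libraries. In the library given iron plus RSL3, 3 were at least 2-fold higher (Hmox1, Flvcr1 and Blvrb), against 4.25% of all measured genes, and 1 was at least 2-fold lower (Cpox), against 11.8%. The other 6 lay between. At 1.5-fold, 3 were higher, against 8.28% of all measured genes, and 3 were lower (Cpox, Alas1 and Urod), against 34.7%. At 4-fold, 1 was higher (Hmox1), against 1.4%, and none was lower, against 0.221%. Of the breakdown genes, Hmox1 and Blvrb lay above the median of all genes and Blvra and Hmox2 lay next to it, Blvra above and Hmox2 below. Both transport genes lay above it, and the 4 genes of synthesis lay below it. Relative to this median, Flvcr1 lay at 2.12, Blvrb at 1.45, Urod at -0.27, Alas1 at -0.44 and Cpox at -0.70. The median difference of the 10 genes, -0.37, was close to the -0.38 of all measured genes with members on both sides of it.

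**Figure D1:**
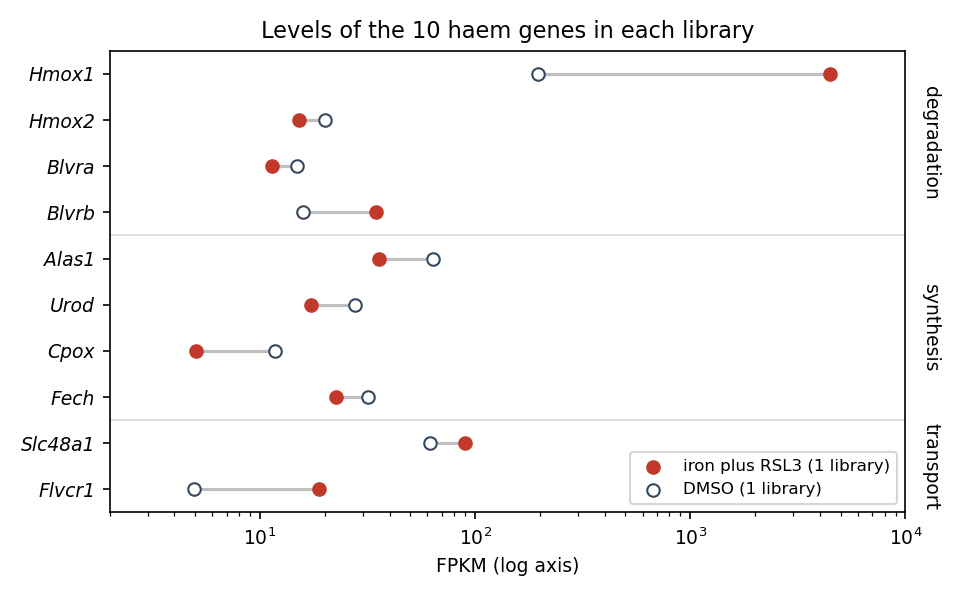
FPKM of the 10 haem genes on a log axis, grouped by role, with filled points for the library given iron plus RSL3 and open points for the DMSO library (1 library each, so no error is drawn). Hmox1 lies at 4450.3 FPKM under iron plus RSL3 and 195 FPKM under DMSO, and the 4 synthesis genes each lie lower under iron plus RSL3.

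Hmox1 encodes haem oxygenase 1, the stress-inducible enzyme of haem breakdown (ENSMUSG00000005413, chromosome 8, 75093621 to 75100589, plus strand, GRCm38). Its level was 4450.3 FPKM in the library given iron plus RSL3 and 195 FPKM in the DMSO library, a ratio of 22.8 and a log2 difference of 4.50, or 4.88 above the median of all genes. If 1 step of the low FPKM values is 1 fragment, this rests on about 126266 and 5068 fragments of its coding transcript of 1569 bases. The exact 95% interval of the ratio is then 22.2 to 23.5, which covers counting error only and not variation between cultures. Of the 11771 measured genes, 10 had a larger difference. Hmox1 ranked 5 among all rows by FPKM under iron plus RSL3 and 289 under DMSO, and it held 1.04% and 0.0507% of the FPKM total of these libraries. Its gain of 4255 FPKM was the largest of any row as deposited, ahead of mt-Co1 with 4218 FPKM, an order that turned round when the libraries were centred on the median ratio of abundant genes.

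Hmox2 encodes the constitutive haem oxygenase (ENSMUSG00000004070, chromosome 16, 4726361 to 4766742, plus strand). It was at 15.1 FPKM under iron plus RSL3 and 20.1 FPKM under DMSO, a log2 difference of -0.38 that lay 0.01 below the median of all genes. FPKM is per length, so levels of different genes can be set side by side within a library. Hmox1 was 293.8 times as abundant as Hmox2 in the library given iron plus RSL3 and 9.72 times as abundant in the DMSO library. The inducible form was the more abundant haem oxygenase transcript in both libraries, and this ratio does not depend on the scaling between them.

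The biliverdin reductases also parted. Blvrb encodes biliverdin reductase B, which also acts as a flavin reductase (ENSMUSG00000040466, chromosome 7, 27447978 to 27466144, plus strand). It was at 34.5 FPKM under iron plus RSL3 and 15.9 FPKM under DMSO, a ratio of 2.18 with a counting interval of 1.89 to 2.52 and a log2 difference of 1.08. This is just past 2-fold, and Blvrb missed 2-fold with equal FPKM totals, at 0.92, and without mitochondrial and the 20 top genes, at 0.995. Blvra encodes biliverdin reductase A, the main producer of bilirubin in adult tissue (ENSMUSG00000001999, chromosome 2, 127070665 to 127097084, plus strand). It was at 11.4 FPKM under iron plus RSL3 and 14.9 FPKM under DMSO, a log2 difference of -0.36, or 0.01 above the median of all genes. Blvrb was 3.04 times as abundant as Blvra under iron plus RSL3, and the pair was near parity under DMSO, at a ratio of 1.06.

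The partners of breakdown listed beside these genes were Por, Ugt1a1, Abcc2 and Abcc1. Por encodes the cytochrome P450 reductase that passes electrons to haem oxygenase, and was at 114.4 FPKM under iron plus RSL3 and 83.3 FPKM under DMSO (log2 difference 0.45). Abcc1, an exporter of glutathione conjugates, was at 37.5 FPKM under iron plus RSL3 and 21.1 FPKM under DMSO (0.80, or 1.01 after centring on the median ratio). The bilirubin-conjugating Ugt1a1 and the canalicular exporter Abcc2, both typical of liver, were not measured.

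Transport of haem was represented by Slc48a1 and Flvcr1. Slc48a1 encodes HRG1, which carries haem out of the endolysosome into the cytosol (ENSMUSG00000081534, chromosome 15, 97778520 to 97792692, plus strand). It was at 89.8 FPKM under iron plus RSL3 and 61.9 FPKM under DMSO, a ratio of 1.45 with a counting interval of 1.38 to 1.52 and a log2 difference of 0.53, which did not pass 2-fold but lay 0.91 above the median of all genes. Flvcr1 encodes a transporter of the plasma membrane and mitochondrion known as a haem exporter and also as a choline carrier (ENSMUSG00000066595, chromosome 1, 191005847 to 191026158, minus strand). Its level was 18.9 FPKM under iron plus RSL3 and 4.94 FPKM under DMSO, a ratio of 3.83 with a counting interval of 3.40 to 4.33 and a log2 difference of 1.75. Of all measured genes, 1.86% had a larger difference. Flvcr1 stayed the weaker of the pair in both libraries, at 0.21 of the FPKM of Slc48a1 under iron plus RSL3 and 0.0797 under DMSO.

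Among 12 other genes of haem transport and binding, 10 were measured, with a median difference of -0.29. None was at least 2-fold higher, against 4.25% of all measured genes, or lower, against 11.8%. On the FPKM ratio itself, with no pseudocount, Hpx (2.90) and Hebp2 (0.474) were past 2-fold, and both are named for that after their values were seen. The most abundant were Pgrmc1, which encodes a haem-binding membrane protein (190.9 FPKM under iron plus RSL3 and 106.1 FPKM under DMSO, log2 difference 0.84, or 1.06 after centring), and Lrp1, the receptor for haem bound to haemopexin (106.6 FPKM under iron plus RSL3 and 131.1 FPKM under DMSO, -0.30). Cd163, the macrophage receptor for haemoglobin bound to haptoglobin, was at 0 FPKM under iron plus RSL3 and 0.04 FPKM under DMSO, and Spic, a transcription factor gene of haem-recycling macrophages, was at 0 in both. They belong to 7 marker genes of haem-recycling macrophages, of which 2 were measured and 3 were at 0 in both libraries, and were singled out after their values were seen. The list summed to 61.5 FPKM under iron plus RSL3 and 77.8 FPKM under DMSO, mostly from the adhesion molecule gene Vcam1, at 56.4 FPKM under iron plus RSL3 and 76.3 FPKM under DMSO. The other measured marker, Slc40a1, was called higher, at 4.78 FPKM under iron plus RSL3 and 1.39 FPKM under DMSO (1.28). Marco, not measured, was at 0.35 FPKM under iron plus RSL3 and 0.11 FPKM under DMSO.

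**Figure D2:**
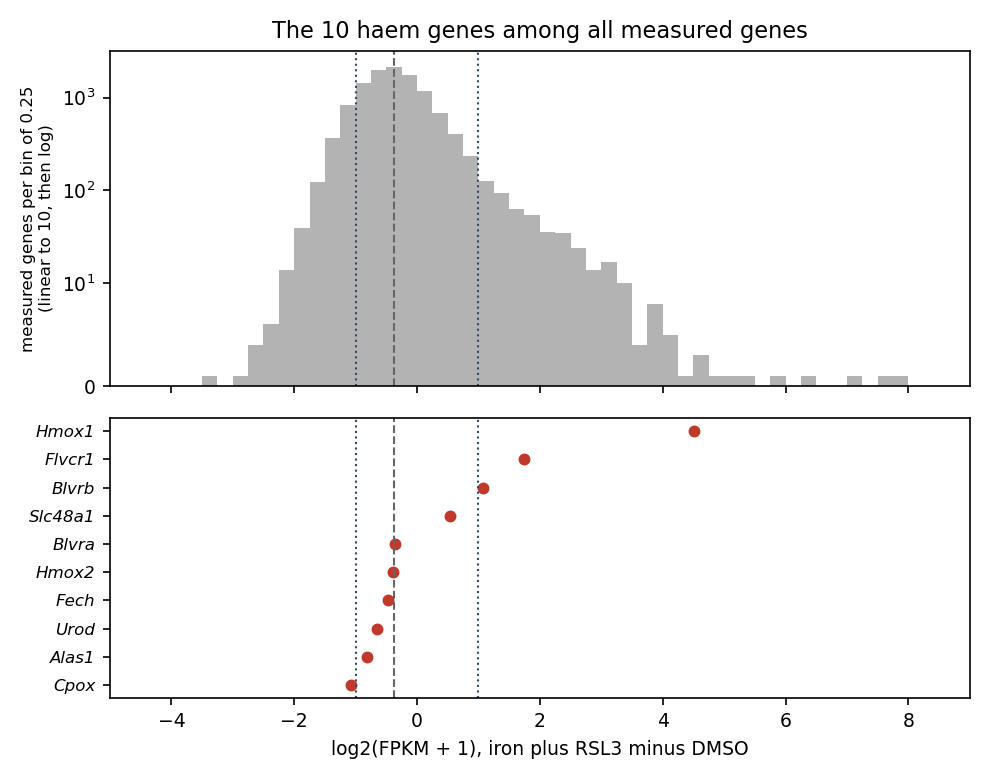
The upper panel counts the 11771 measured genes by log2(FPKM + 1) of iron plus RSL3 minus DMSO, in bins of 0.25, and the lower panel places the 10 haem genes on the same axis. The dashed line is the median of all measured genes (-0.38) and the dotted lines mark 2-fold; Hmox1 at 4.50 lies far in the upper tail, Blvra and Hmox2 lie next to the median, and the synthesis genes Fech, Urod, Alas1 and Cpox lie below it.

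Of the 4 synthesis genes, 1 was called lower, and the differences of all 4 lay below 0, as did those of 74.3% of all measured genes. Alas1 encodes the housekeeping 5-aminolevulinate synthase, the rate-limiting first enzyme outside red cells, which haem represses (ENSMUSG00000032786, chromosome 9, 106233455 to 106248654, minus strand). It was at 35.8 FPKM under iron plus RSL3 and 64.0 FPKM under DMSO, a ratio of 0.560 with a counting interval of 0.531 to 0.590 and a log2 difference of -0.82. Alas1 was the most abundant synthesis gene in both libraries. Urod encodes the cytosolic uroporphyrinogen decarboxylase (ENSMUSG00000028684, chromosome 4, 116989965 to 116994413, minus strand), and was at 17.2 FPKM under iron plus RSL3 and 27.6 FPKM under DMSO, a log2 difference of -0.65. Cpox encodes coproporphyrinogen oxidase of the mitochondrial intermembrane space (ENSMUSG00000022742, chromosome 16, 58670292 to 58717636, plus strand). It was at 5.03 FPKM under iron plus RSL3 and 11.7 FPKM under DMSO, a ratio of 0.430 with a counting interval of 0.373 to 0.497 and a log2 difference of -1.07. Cpox was the only one of the 10 genes called lower, and it missed 2-fold, at -0.89, after centring on the median ratio. Fech encodes ferrochelatase, which inserts iron into protoporphyrin (ENSMUSG00000024588, chromosome 18, 64452914 to 64490251, minus strand), and was at 22.5 FPKM under iron plus RSL3 and 31.6 FPKM under DMSO, a log2 difference of -0.47. It lay 0.09 below the median of all genes, the least of the 4.

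Other enzymes of the chain lay on the same side. Alad, the cytosolic 5-aminolevulinate dehydratase gene, was at 7.58 FPKM under iron plus RSL3 and 13.3 FPKM under DMSO (-0.73). Uros, the uroporphyrinogen III synthase gene, was at 2.83 FPKM under iron plus RSL3 and 6.08 FPKM under DMSO (-0.88, or -1.07 with a pseudocount of 0.1 FPKM and -1.10 with none, past 2-fold). Ppox, the protoporphyrinogen oxidase gene, was at 5.53 FPKM under iron plus RSL3 and 10.1 FPKM under DMSO (-0.76). Uros falls outside the rule for named genes and was chosen after its value was seen. All 7 enzymes described here had a difference below 0, as did 74.3% of all measured genes, and all 7 also lay below the median of all measured genes. Their differences ran from -1.07 to -0.47 with a median of -0.76, and 42.9% of all measured genes lay at or below the highest of them. The 3 cytosolic enzymes had a median of -0.73 and the 4 mitochondrial enzymes a median of -0.79. The FPKM of the 7 summed to 96.6 under iron plus RSL3 and 164.3 under DMSO. Alas2, the erythroid form of the first enzyme, was at 0.08 FPKM under iron plus RSL3 and at 0 under DMSO, and was likewise singled out after its value was seen. Hmox1 was 124.2 times as abundant as Alas1 in the library given iron plus RSL3 and 3.05 times as abundant in the DMSO library.

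**Figure D3:**
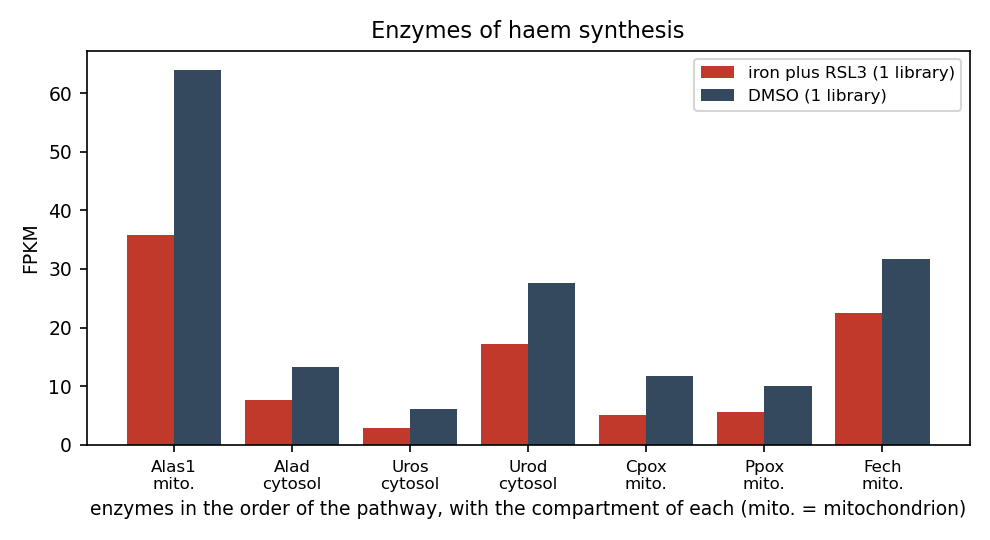
FPKM of 7 enzymes of haem synthesis in the order of the pathway, with bars for the library given iron plus RSL3 on the left and for the DMSO library on the right of each pair (1 library each, no error bars). Every pair is lower under iron plus RSL3, with Alas1 at 35.8 FPKM under iron plus RSL3 and 64.0 FPKM under DMSO, and Cpox at 5.03 FPKM under iron plus RSL3 and 11.7 FPKM under DMSO.

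Genes that serve the passage of intermediates and iron through the mitochondrial membranes, or the turnover of the first enzyme, lay on both sides of 0. Of 12 genes, all measured, 1 was at least 2-fold higher, against 4.25% of all measured genes, and none lower, against 11.8%, with a median difference of -0.08. The higher gene was Abcb6, which encodes a porphyrin transporter, at 9.03 FPKM under iron plus RSL3 and 3.15 FPKM under DMSO (1.27). The most abundant were Tspo, which encodes a porphyrin-binding protein of the outer mitochondrial membrane (215.9 FPKM under iron plus RSL3 and 180.9 FPKM under DMSO, 0.25), and Slc25a39, an inner membrane carrier gene (59.6 FPKM under iron plus RSL3 and 60.8 FPKM under DMSO, -0.03, and 0.19 after centring on the median ratio).

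Among sensors of haem and regulators of Hmox1, of 12 genes 10 were measured. Of these, 5 were at least 2-fold higher, against 4.25% of all measured genes, and 1 was lower, against 11.8%, with a median difference of 1.09. The haem lists were chosen with earlier results of these data known, so such counts are descriptions and not tests. Bach1, which encodes the haem-binding repressor of Hmox1, was at 22.4 FPKM under iron plus RSL3 and 7.91 FPKM under DMSO (1.40). Mafk encodes a small MAF protein that pairs with BACH1 or with NRF2 on the antioxidant response elements of Hmox1, and was at 59.8 FPKM under iron plus RSL3 and 16.7 FPKM under DMSO (1.78). Maff, of the same family, was at 103.4 FPKM under iron plus RSL3 and 28.1 FPKM under DMSO (1.84). Nfe2l2, which encodes the activator NRF2, was at 117.5 FPKM under iron plus RSL3 and 67.5 FPKM under DMSO (0.79, or 1.01 after centring on the median ratio). Nr1d1 and Nr1d2 encode the haem-binding clock repressors REV-ERB alpha and beta, and were at 46.8 and 22.8 FPKM under iron plus RSL3, against 11.4 and 8.07 FPKM under DMSO, log2 differences of 1.94 and 1.39. Fbxo22, which encodes a ubiquitin ligase adaptor that in human cells marks haem-bound BACH1 for degradation, was lower, at 9.04 FPKM under iron plus RSL3 and 20.3 FPKM under DMSO (-1.09, or -0.89 after centring). Eif2ak1, the gene of the haem-regulated eIF2alpha kinase, was at 7.66 FPKM under iron plus RSL3 and 16.2 FPKM under DMSO. It lay just short of 2-fold lower on the log2(FPKM + 1) scale (-0.99) but past it on the FPKM ratio itself (0.471), and was singled out after its value was seen.

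The iron freed from haem is stored in ferritin or exported. The ferritin genes Fth1 and Ftl1 were at 4582 and 4817 FPKM under iron plus RSL3, against 2428 and 2170.3 FPKM under DMSO, and the exporter gene Slc40a1 was at 4.78 FPKM under iron plus RSL3 and 1.39 FPKM under DMSO. Ftl1 and Slc40a1 passed 2-fold as deposited, Ftl1 not with equal totals (0.99), and Fth1 only after centring (1.14). Hmox1 stood at 0.971 of the FPKM of Fth1 in the library given iron plus RSL3 and at 0.0803 of it in the DMSO library.

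Of 40 genes of haem-containing proteins with a row, 27 were measured. Of these, 3 were at least 2-fold higher, against 4.25% of all measured genes, and 2 lower, against 11.8%, and the median difference was -0.29. Ptgs2, the inducible cyclooxygenase gene, was at 981.7 FPKM under iron plus RSL3 and 70.6 FPKM under DMSO (3.78). Cyp1a1, a cytochrome P450 gene of xenobiotic metabolism, was at 14.5 FPKM under iron plus RSL3 and 1.01 FPKM under DMSO (2.95). Cyb5a, which encodes the electron carrier cytochrome b5, was at 105.5 FPKM under iron plus RSL3 and 47.4 FPKM under DMSO (1.14, or 0.98 with equal totals). The retinoic acid hydroxylase gene Cyp26b1 was lower, at 2.82 FPKM under iron plus RSL3 and 8.12 FPKM under DMSO (-1.25). The metalloreductase gene Steap2 was lower too, at 15.4 FPKM under iron plus RSL3 and 34.5 FPKM under DMSO (-1.11, or -0.91 after centring). The most abundant haem protein gene, mt-Cytb of the mitochondrial genome, was at 1879 FPKM under iron plus RSL3 and 1392 FPKM under DMSO (0.43). Over the 67 measured genes of these haem lists outside the 10, 11 were higher, against 4.25% of all measured genes, and 3 lower, against 11.8%, with a median of -0.03 that became 0.19 after centring. The lower count was 9 with a pseudocount of 0.1 FPKM and 10 with none. Among all measured genes it rose as well, from 1384 to 2379 and 2492 in these settings.

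**Figure D4:**
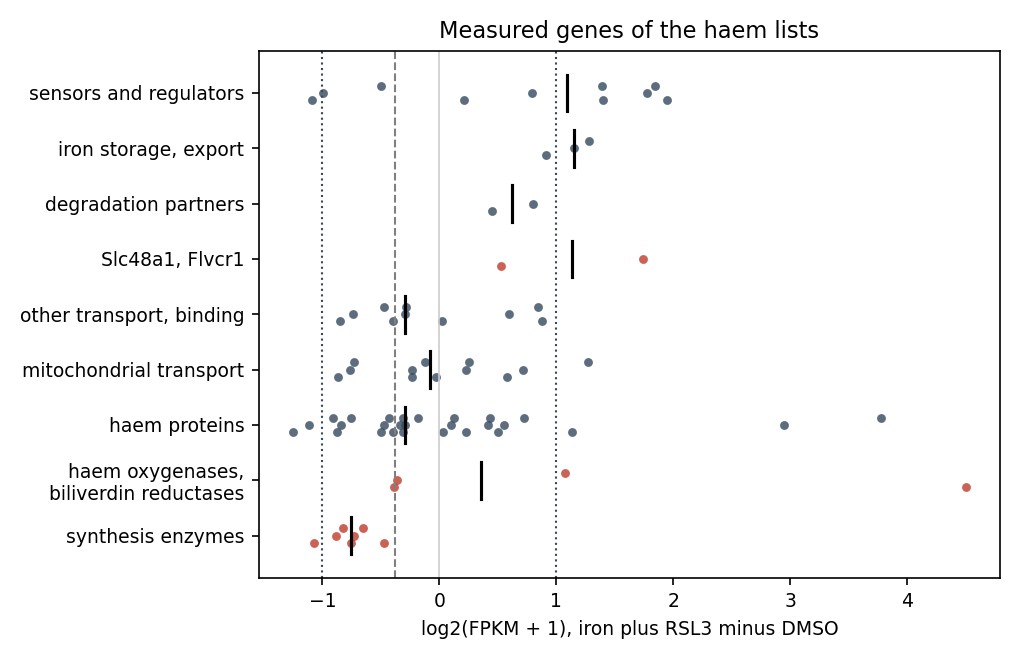
Log2 difference, iron plus RSL3 minus DMSO, of each measured gene in the haem lists, 1 point per gene (red for the lists that hold the 10 genes, dark for the others), with a black bar at the median of each list. The dashed line is the median of all measured genes and the dotted lines mark 2-fold; the 7 synthesis enzymes lie together between -1.07 and -0.47, while the sensors and regulators have a median of 1.09.

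Promoter sequence was available for 7 of the 10 genes as RefSeq windows on GRCm38.p6, here the 250 bases before each annotated start. Of the genes called higher, Flvcr1 and Blvrb had such a window, and they are shown because they were called higher as Hmox1 was. They are written from 5′ to 3′ on the strand of the gene, with any match to the core of the antioxidant response element (TGACNNNGC on either strand, the site of NRF2 and BACH1 with small MAF proteins) in capitals. The windows are chr1:191026191-191026440 (minus strand) and chr7:27447728-27447977 (plus strand).
Flvcr1: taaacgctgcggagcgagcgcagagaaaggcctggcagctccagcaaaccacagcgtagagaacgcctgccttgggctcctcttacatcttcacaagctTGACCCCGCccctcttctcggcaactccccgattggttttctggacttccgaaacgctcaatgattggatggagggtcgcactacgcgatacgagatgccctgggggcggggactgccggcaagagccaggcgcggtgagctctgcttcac
Blvrb: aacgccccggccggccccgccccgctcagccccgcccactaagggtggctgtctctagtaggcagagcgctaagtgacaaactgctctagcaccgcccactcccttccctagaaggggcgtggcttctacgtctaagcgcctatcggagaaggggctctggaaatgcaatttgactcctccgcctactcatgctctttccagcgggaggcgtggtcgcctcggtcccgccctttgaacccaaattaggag
The Flvcr1 window holds a match that begins 151 bases before the start site, and the Blvrb window shown holds none. Another Blvrb window, chr7:27452168-27452417, is not shown and holds none either. Blvra, which lay at the median of all genes, also holds a match, which begins 49 bases before its start site. Among all 32851 windows of this length, 10.2% hold a match. A match is a description of letters, not a bound site.

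In the synthesis genes, matches were looked for to the E-box read by the clock activators and other factors (CACGTG) and to 1 form of the GATA site of erythroid genes (AGATAA), on either strand. These motifs do not overlap in the windows shown. Urod holds an E-box 49 bases before its start, and 6.02% of all windows hold one. Alad holds it as well, and so does a Uros window, at its far edge 250 bases before the start. Another Uros window, chr7:133702501-133702750, holds none. AGATAA was in no window of the 6 synthesis enzymes that had one, against 9.99% of all windows, and other forms of the GATA site were not searched. The matches of Urod (chr4:116994445-116994474, minus strand) and Blvra (chr2:127070598-127070627, plus strand) are shown with their flanks, the motif in capitals, to set the letters of a gene with a lower level beside those of a gene at the median.
Urod: cactggatcggtCACGTGgttctcaatatg
Blvra: cacgggaattGCTCGGTCAaggctccgcct

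None of the 10 genes changed sign under any of 7 other pseudocounts, filters and scalings. Only the scalings could have changed a sign, since a pseudocount keeps the direction and a filter leaves the value as it is. Hmox1 ranged from 4.35 to 4.72, Flvcr1 from 1.60 to 1.95 and Slc48a1 from 0.37 to 0.75. Blvrb ranged from 0.92 to 1.29 and Cpox from -1.22 to -0.89, so their calls rest on the size rule and the scaling. Annotated genes overlap Flvcr1, Slc48a1, Alas1 and Cpox on the opposite strand, and Hmox2 on both strands. No strand-marking step is named in the labels, and reads in such overlaps may be shared. Of these neighbours, Hdac7 beside Slc48a1 was at 19.4 FPKM under iron plus RSL3 and 28.7 FPKM under DMSO, and Cdip1 beside Hmox2 was at 9.52 FPKM under iron plus RSL3 and 10.3 FPKM under DMSO.

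**Figure D5:**
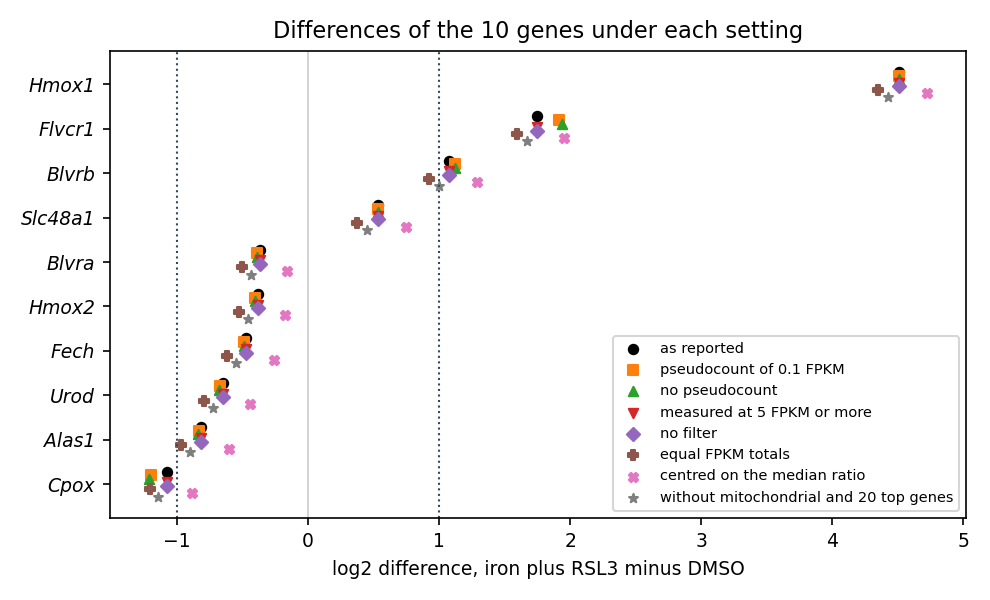
Log2 difference, iron plus RSL3 minus DMSO, of the 10 genes as reported and under 7 other settings, 1 marker per setting, with dotted lines at 2-fold. Each gene keeps its side of 0, which only the scalings could change, and Blvrb (0.92 to 1.29) and Cpox (-1.22 to -0.89) straddle the 2-fold lines.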

How the data were processed

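Values were FPKM deposited by the authors, 1 column per library, assigned through the library names in the labels. GRCm38, HISAT2, StringTie, DESeq2 and edgeR appear in the submitters' processing notes, with no version or role. For annotation release and filters, the sources used here give nothing. FPKM totals were 429250 under iron plus RSL3 and 385141 under DMSO. Gene coordinates come from GENCODE M21, on the same build, in which 22022 of 22036 Ensembl identifiers were found. Promoter windows are from RefSeq on GRCm38.p6.

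Differences were log2(FPKM + 1), iron plus RSL3 minus DMSO, over the 11771 rows at 1 FPKM or more in either library, new loci included. With 1 library per condition no test was made. For genes with 1 annotated transcript, FPKM times length clustered at steps of 55.3 under iron plus RSL3 and 60.4 under DMSO. Of the values below 3.5 steps, 38.4% and 36.4% lay within 0.05 of a whole step (10% if evenly spread), so whole fragments were not recovered and fragments are estimates, at about 18.1 under iron plus RSL3 and 16.6 under DMSO for 1 FPKM on 1000 bases. Each step was chosen to bring these same values close to whole steps, so the 10%, which holds for a step not fitted, is no test of it. Counting intervals are exact binomial (95%), on the longest coding transcript, which gives the most fragments and so the narrowest interval. On the shortest coding transcript the interval was 3.08 to 4.84 for Flvcr1 and 1.77 to 2.68 for Blvrb. It was 1.33 to 1.59 for Slc48a1 and 0.483 to 0.648 for Alas1. Those of Hmox1 and Cpox were the same.

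The members and lists were chosen with earlier results of these data known, and the motifs after the windows had been read. Named genes were the 10 members and, from each haem list, every gene past 2-fold and the 2 most abundant, 35 in all. From the haem lists 1 gene was left out and is not reported here. Alternatives covered pseudocount, filter, scale and size rule. The calculations were tested on simulated data with Python 3.11.15, numpy 2.4.6, pandas 2.3.3 and scipy 1.17.1.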

Additional observations from a re-analysis of the deposited data

How the results depend on the processing

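With 1 library per condition, no replicate could be left out and no paired analysis was possible because each group holds 1 library. The count of the 10 genes at least 2-fold higher, 3, became 2 with equal totals, 2 without mitochondrial and the 20 top genes (Blvrb lost its call in both) and 1 at 4-fold, and the count lower, 1, became 0 after centring, 3 at 1.5-fold and 0 at 4-fold. Their median of -0.37 was -0.40 with a pseudocount of 0.1 FPKM, -0.40 with none, -0.52 with equal totals, -0.17 after centring and -0.45 without mitochondrial and the 20 top genes. In the same order of settings the median of the 7 synthesis enzymes, -0.76, was -0.84, -0.84, -0.89, -0.57 and -0.83. All 7 stayed below 0, which only the scalings could have changed. The median of the other haem genes, -0.029, was -0.0296, -0.0297, -0.18, 0.19 and -0.11 in that order, -0.0022 at 5 FPKM or more and 0.015 without a filter, so its sign rests on the scaling and the filter. Their count higher, 11, became 9 with equal totals, 16 after centring, 19 at 1.5-fold and 2 at 4-fold. Their count lower, 3, became 9 with a pseudocount of 0.1 FPKM, 10 with none, 5 with equal totals, 1 after centring, 16 at 1.5-fold and 0 at 4-fold. Of all measured genes, 500 were higher as reported. That count was 655 with a pseudocount of 0.1 FPKM, 642 with none, 425 with equal totals and 685 after centring. It was 975 at 1.5-fold and 165 at 4-fold. The count lower, 1384, was 2379, 2492, 1970 and 803 in the same order, 4089 at 1.5-fold and 26 at 4-fold. Slc25a39 turned from -0.03 to 0.19 after centring. Over the named genes and synthesis enzymes, 237 alternative values kept their direction and side of 2-fold, 7 lost a call, 6 gained it and 1 changed sign. Values under the other filters equal the reported ones and pseudocounts cannot turn a sign, so part of the 237 was fixed in advance. The median of all genes, -0.38, was -0.51 with equal totals and -0.18 after centring. Depth limits Blvra, at an estimated 238 fragments under iron plus RSL3 and 286 under DMSO, and the DMSO level of Blvrb, at 270.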
